A study of Mus musculus with 24 samples.

Results

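The genes that encode the chains of collagens were followed through livers of mice on a normal diet, a high-fat diet (HFD), or an HFD with a herbal preparation. The members were taken by symbol, as all genes named Col, a number, a and a number, which gave 42 of the 18314 genes listed in the count table. Of these, 10 encode fibrillar chains, 8 basement membrane chains and 24 other chains (type VI, fibril-associated, short-chain network, transmembrane and unclassified collagens). A further 3 chains of the class lists, Col2a1, Col21a1 and Col26a1, were not analysed here. The male C57BL/6 mice of the study are described as wild type; in its design each group had 9 mice, and gavage with the Huatanqushihuoxue Formula (HQHF) began after 12 weeks of HFD in a model of metabolic dysfunction-associated fatty liver disease. From each of 3 groups (normal diet, HFD, and HFD plus HQHF) 4 livers were sequenced, each liver once for long RNA and once for small RNA. The study gave HQHF at low, medium or high dose, and the labels do not say which dose the sequenced mice received, nor the age of the mice.

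A collagen molecule is a triple helix of 3 chains. The fibrillar collagens (types I, III, V and others) assemble into the banded fibrils of connective tissue, type IV collagen forms the network of basement membranes, and type VI collagen forms beaded filaments beside them. In liver, types I and III are the main collagens of scar tissue, and stellate cells and portal fibroblasts are their best known sources, while hepatocytes make most of the organ's other messenger RNA.

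The comparisons used 10 long RNA libraries, namely control mice 1, 3 and 4, HFD mice 1 to 4, and HFD plus HQHF mice 1, 2 and 4. Their total counts lay between 36198931 and 46454404. Control 2 and HFD plus HQHF 3 stood apart. The hepatocyte gene Alb was at 46.4 and 0.743 CPM (a gene's counts scaled to a common library size) of the library total in them, against 35054 to 92208 CPM in the other 10 libraries, and the adipocyte gene Adipoq was at 4543 and 1254 CPM, against at most 41.2 CPM in the others. They are labelled liver, go against that label by these markers, and were left out of the comparisons. With all 12 libraries in the fit, no collagen gene passed the test in any comparison, against 15 (14 higher, 1 lower), 15 and 0 with the 10; of all genes, 0.0503% were then called higher in HFD against control, and 0.00718% lower in HFD plus HQHF against HFD. Levels are given below as CPM of the library size after scaling by TMM, a factor computed from the bulk of genes, which was 1.20 to 1.42 in the HFD libraries and 0.763 to 0.939 in the others. In every list of values by mouse, the order is control 1, 3 and 4, then HFD 1 to 4, then HFD plus HQHF 1, 2 and 4. A gene is called when its adjusted p (edgeR's quasi-likelihood test, Benjamini-Hochberg over all 13832 genes tested) is under 0.05. Of the 42 members, 31 passed the filter on low counts and were tested (9 fibrillar, 8 basement membrane and 14 other chains).

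HFD against control asks what the diet does to the collagen genes. In HFD livers 14 of the 31 tested members were called higher and 1 was called lower, where 16.3% of all genes tested were called higher and 9.89% lower. Col1a1, Col1a2, Col3a1, Col5a1, Col5a2, Col4a1, Col4a2 and the type VI chains Col6a1, Col6a2 and Col6a3 are among those that rose. The largest fold rise among the called members was that of Col1a1, from 3.02 ± 1.31 CPM (SD, n = 3) to 73.6 ± 58.1 CPM (SD, n = 4). By class, 5 of 9 fibrillar, 3 of 8 basement membrane and 6 of 14 other chains were called higher. The median log2 fold change over the 31 tested members was 1.79 (fibrillar 1.79, basement membrane 1.59, other 1.88), beside 0.06 over all genes tested. The 4 HFD and 3 control values did not overlap for 16 members with HFD higher and for 1 with HFD lower, where the same holds for 20.8% and 15.9% of all genes. At an unadjusted p under 0.05, 22 members passed, beside 40.9% of all genes, and DESeq2 called 19 members higher, beside 19.7% of genes.

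The fibrillar chains included the largest fold differences. Col1a1 (ENSMUSG00000001506) encodes the alpha 1 chain of type I collagen, the most abundant collagen of the body. Its level was 2.76, 1.87 and 4.44 CPM in the control mice, 97.9, 35.6, 17.3 and 144 CPM in the HFD mice, and 1.87, 2.01 and 8.08 CPM in the HFD plus HQHF mice. All 4 HFD mice lay above every other mouse, and they differed among themselves by more than the control mice did. The log2 fold change of Col1a1 in HFD over control was 4.61 ± 0.91 (SE, edgeR adjusted p = 0.00978). Col1a2, the alpha 2 chain that joins 2 alpha 1 chains in type I collagen, was at 7.27, 7.43 and 12.3 CPM, then 130, 54.7, 31.1 and 176 CPM, then 10.4, 8.22 and 21.9 CPM. It rose in HFD by 3.44 ± 0.65 on the log2 scale (SE, edgeR adjusted p = 0.00807), and its HFD values did not overlap those of either other group. Col3a1, whose product forms type III collagen alone, was at 17.3, 13.8 and 20.7 CPM, then 260, 104, 47.2 and 303 CPM, then 16.7, 20.1 and 26.3 CPM. Again the HFD group stood clear of both others, with a log2 fold change of 3.37 ± 0.60 over control (SE, edgeR adjusted p = 0.00634).

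Promoters were examined because chains of different types differed together. Of the 42 member symbols, 35 had an entry in RefSeq's promoter table (GRCm38.p6), with 38 windows of 250 bases before the start site. The CCAAT box (CCAAT or ATTGG) was found in 34.2% of member windows and in 33.8% of all 32851 windows. The Sp1 core (GGGCGG or CCGCCC) was in 57.9% of member windows and 32.7% of all, the AP-1 site (TGACTCA or TGAGTCA) in 2.63% and 4.46%, and the TATA box (TATAAA or TTTATA) in 13.2% and 12.4%. Windows of CpG-rich promoters hold GC-rich letters more often, and this was not adjusted for. The Col1a2 and Col3a1 windows are shown, 5′ to 3′, as the promoters of 2 chains that rose by like amounts, with the matched letters in capitals: in Col1a2 the Sp1 core lay 205 and 188 bases and the CCAAT box 109 bases before the start, and in Col3a1 a TATA box lay 117 bases before it. The windows are chr6:4505368-4505617 (+) and chr1:45311288-45311537 (+) in GRCm38.p6.
Col1a2: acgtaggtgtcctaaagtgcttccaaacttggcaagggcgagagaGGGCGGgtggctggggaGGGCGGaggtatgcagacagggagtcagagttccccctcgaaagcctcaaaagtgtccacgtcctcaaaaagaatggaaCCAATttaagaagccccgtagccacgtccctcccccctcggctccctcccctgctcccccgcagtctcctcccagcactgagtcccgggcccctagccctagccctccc
Col3a1: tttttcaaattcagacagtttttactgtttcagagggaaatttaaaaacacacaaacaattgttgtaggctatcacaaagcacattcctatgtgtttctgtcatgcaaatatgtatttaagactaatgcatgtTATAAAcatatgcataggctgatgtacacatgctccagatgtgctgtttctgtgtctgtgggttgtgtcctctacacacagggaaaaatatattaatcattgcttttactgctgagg
The pair shares no matched motif, and a match or its lack says only which letters are in the window.

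Type V collagen is a minor component that starts and limits the growth of type I fibrils. Col5a1 was at 4.60, 6.36 and 10.2 CPM, then 29.6, 18.5, 13.8 and 35.6 CPM, then 5.60, 6.05 and 8.34 CPM, and rose in HFD by 1.79 ± 0.37 on the log2 scale (SE, edgeR adjusted p = 0.0088). Col5a2 was at 2.07, 1.59 and 2.6 CPM, then 19.6, 10.1, 4.37 and 40.7 CPM, then 1.75, 2.48 and 3.27 CPM, and rose by 3.16 ± 0.69 (log2, SE, edgeR adjusted p = 0.0123). For both chains the HFD mice lay above all control and all HFD plus HQHF mice. The remaining tested fibrillar chains were not called: the log2 fold changes of HFD over control were 0.35 for Col5a3, 0.25 for Col27a1, 0.06 for Col11a2 and -0.13 for Col24a1, each with overlapping groups.

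**Figure D1:**
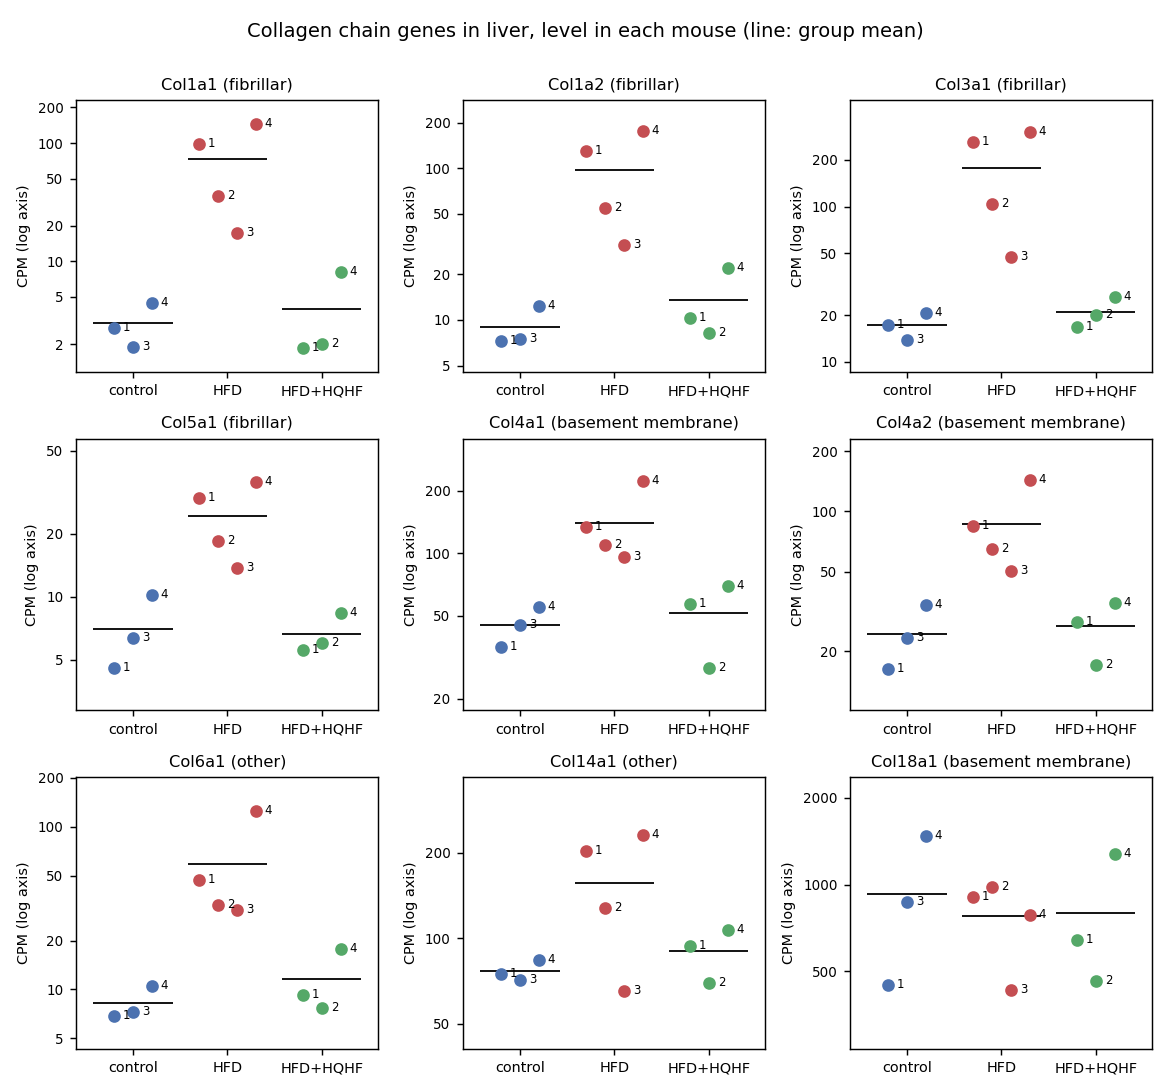
Level of 9 collagen chain genes (y, CPM, log axis) in each of the 10 mice, grouped by diet and treatment (x); each point is 1 mouse with its number, and the line is the group mean. The 4 HFD mice lie above the other groups for Col1a1, Col1a2, Col3a1, Col5a1, Col4a1, Col4a2 and Col6a1, and the groups overlap for Col14a1 and Col18a1.

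The basement membrane class was split. Col4a1 and Col4a2 encode the chains of the type IV network found in nearly all basement membranes, and their genes lie head to head on chromosome 8, with 21 bases between their start sites in the RefSeq promoter table (GRCm38.p6). Col4a1 was at 35.6, 45.5 and 55.3 CPM, then 133, 109, 96.3 and 222 CPM, then 57.3, 28.2 and 69.7 CPM. Col4a2 was at 16.2, 23.1 and 33.8 CPM, then 84.9, 65.0, 50.5 and 144 CPM, then 27.9, 17 and 35 CPM. Each HFD mouse was above each mouse of the other groups, and the log2 fold changes over control were 1.62 ± 0.36 for Col4a1 (SE, edgeR adjusted p = 0.0117) and 1.82 ± 0.40 for Col4a2 (SE, edgeR adjusted p = 0.012). Col4a5, a chain of the specialised type IV networks of kidney and other tissues, was low throughout: 0.945, 1.08 and 1.02 CPM, then 5.94, 2.52, 2.43 and 20.0 CPM, then 1.32, 1.12 and 1.41 CPM. It was called higher in HFD (log2 fold change 2.93 ± 0.73, SE, edgeR adjusted p = 0.0185), with HFD 4 far above the other HFD mice.

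The other basement membrane chains were not called in HFD against control. Col4a6 had a log2 fold change of 2.76 ± 0.96 (SE) and an edgeR adjusted p of 0.0558; HFD 1 and HFD 4 were at 2.47 and 5.16 CPM, whereas HFD 3, at 0.235 CPM, lay within the control range of 0.179 to 0.552 CPM. For Col4a4 the log2 fold change was 1.55 and for Col4a3 it was 1.26, and in both genes HFD 4 held the highest value (7.05 and 4.33 CPM). Col15a1 and Col18a1, which encode the multiplexin collagens of basement membrane zones, were among them. Col15a1 had a log2 fold change of 0.53 ± 0.51 (SE, edgeR adjusted p = 0.468). Col18a1, whose C-terminal fragment is endostatin and which hepatocytes themselves express, was at 446, 869 and 1474 CPM, then 904, 980, 430 and 787 CPM, then 640, 463 and 1281 CPM. The groups overlapped, and the log2 fold change of HFD over control was -0.26 ± 0.45 (SE, edgeR adjusted p = 0.699).

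Among the other chains, type VI collagen stood out. Col6a1, Col6a2 and Col6a3 together form the usual type VI molecule, which links fibrils and cells. Col6a1 was at 6.91, 7.30 and 10.5 CPM, then 47.1, 33.3, 30.8 and 126 CPM, then 9.25, 7.75 and 17.6 CPM. Col6a2 was at 4.02, 3.84 and 4.73 CPM, then 29.8, 17.3, 9.45 and 72.3 CPM, then 4.57, 4.17 and 7.77 CPM. Col6a3 was at 9.66, 10.4 and 11.4 CPM, then 80.9, 55.7, 20.0 and 188 CPM, then 10.5, 10.2 and 21.8 CPM. All HFD mice exceeded all control mice for the 3 genes, and only for Col6a3 did an HFD plus HQHF mouse (4) exceed an HFD mouse (3). The rises in HFD over control, on the log2 scale, were 2.85 ± 0.56 for Col6a1 (edgeR adjusted p = 0.00871), 2.94 ± 0.64 for Col6a2 (0.013) and 3.04 ± 0.68 for Col6a3 (0.0141), each ± SE. The later-described type VI chains Col6a5 and Col6a6 were not called: their log2 fold changes were 2.05 (edgeR adjusted p = 0.0931) and 0.97 (edgeR adjusted p = 0.10).

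The fibril-associated collagens sit on the surface of fibrils without forming fibrils of their own. Col12a1 was at 3.34, 2.26 and 2.35 CPM, then 11.7, 5.85, 6.61 and 17 CPM, then 1.09, 2.43 and 1.99 CPM, and Col16a1 was at 1.18, 1.33 and 2.22 CPM, then 6.59, 3.29, 3.69 and 8.34 CPM, then 1.90, 1.43 and 2.46 CPM. Both separated the HFD mice from all others, with rises over control of 1.96 ± 0.41 (log2, SE, edgeR adjusted p = 0.00936) and 1.80 ± 0.39 (log2, SE, edgeR adjusted p = 0.0103). Col14a1, a fibril-associated collagen of the liver's portal tracts and vessels, did not pass: 75.2, 71.3 and 83.9 CPM, then 204, 127, 65.4 and 231 CPM, then 94.2, 69.9 and 107 CPM, with a log2 fold change of 1.03 ± 0.36 (SE, edgeR adjusted p = 0.0563). Here HFD 3 was the lowest of the 10 mice while HFD 1, HFD 2 and HFD 4 were the highest. Col8a1, a short-chain collagen of vessel walls, was at 0.762, 0.487 and 0.603 CPM, then 2.19, 0.974, 0.862 and 5.95 CPM, then 0.546, 0.548 and 0.863 CPM. It was called higher in HFD by a narrow margin (log2 fold change 2.01 ± 0.65, SE, edgeR adjusted p = 0.0438). Its partner Col8a2 (log2 fold change 2.29, edgeR adjusted p = 0.057) and the transmembrane collagens Col23a1 (1.26) and Col13a1 (-0.31) were not called, nor was the fibril-associated Col20a1 (0.27).

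Col19a1, also grouped with the fibril-associated collagens, was the only member called lower. It was at 335, 248 and 337 CPM in control mice, 140, 71.1, 166 and 95.1 CPM in HFD mice, and 183, 272 and 81.6 CPM in HFD plus HQHF mice. The HFD mice lay below all control mice, with a log2 fold change of -1.38 ± 0.38 (SE, edgeR adjusted p = 0.0257), while the HFD plus HQHF mice spanned both ranges. Under scaling by library totals alone its log2 fold change was -0.75 (edgeR adjusted p = 0.142), so this call depended on the TMM factors.

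Scaling touched the members' counts as a whole. With library totals in place of TMM the all-gene median of HFD over control (log2) moved from 0.06 to 0.66, and 50.9% of genes were called higher and 1.11% lower. The members then gave 21 higher and 0 lower. The 14 members called higher with TMM had their direction in every fit that left out 1 of the 10 libraries. Of these, 7 (Col1a1, Col1a2, Col3a1, Col5a1, Col6a1, Col12a1 and Col16a1) were called in all 10 such fits. The count of members called higher was 7 without control 1, 9 without control 3 and 17 without HFD 3. Of all genes, 951 of 14227, 862 of 14259 and 2349 of 13629 were called higher in these fits, against 2257 of 13832 with the 10 libraries.

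The HFD mice were not alike. HFD 4 had the highest level of the 4 for all 14 members called higher, and HFD 3 had the lowest for 12 of them, HFD 2 for the other two. The median over the 31 tested members of log2 CPM minus the control mean was 1.78 in HFD 1, 1.09 in HFD 2, 1.04 in HFD 3 and 2.42 in HFD 4. In the control mice the same median was -0.09, -0.12 and 0.31, and in the HFD plus HQHF mice it was -0.03, -0.09 and 0.48. All HFD mice thus lay above all others by this measure, while mouse 4 was the highest within each of the 3 groups; mice that share a number do not come from a shared batch in the labels. For the basement membrane class this median was 2.62 in HFD 4 and 0.79 to 1.11 in the other HFD mice, and for the fibrillar class 2.40 in HFD 4 and 1.04 to 2.14 in the others.

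**Figure D2:**
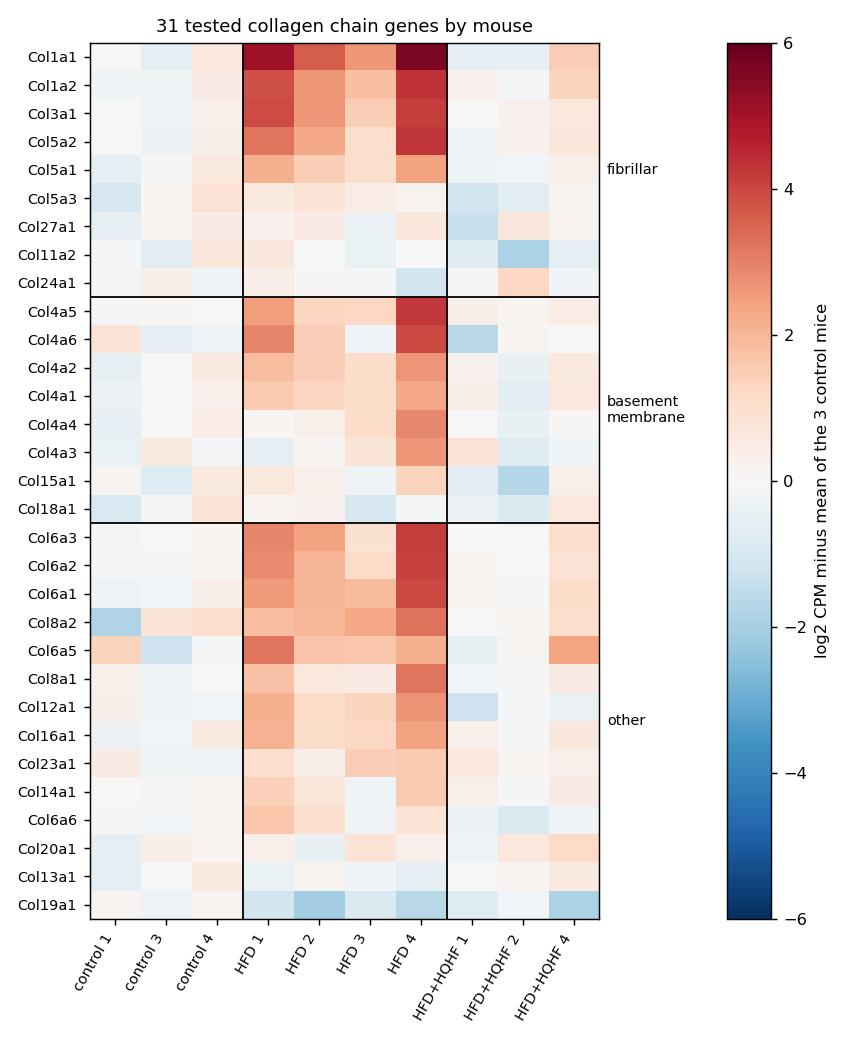
Log2 CPM minus the mean of the 3 control mice (color, from blue below to red above) for the 31 tested collagen chain genes (y, by class) in each of the 10 mice (x). The HFD columns are red for most genes, darkest in HFD 4, while the HFD plus HQHF columns are close to the control columns; Col19a1, the bottom line, is blue in HFD.

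HFD plus HQHF against HFD asks whether collagen genes differ in treated mice on the same diet. In treated mice 15 of the 31 tested members were called lower and 0 higher, where 11.1% of all genes tested were called lower and 7.85% higher. The 15 were 5 of 9 fibrillar, 4 of 8 basement membrane and 6 of 14 other chains. The 10 chains named as rising in HFD were again among them, while Col5a3 and Col6a5 were not. The median log2 fold change was -1.5 over the 31 members (fibrillar -1.87, basement membrane -1.57, other -1.49), beside -0.07 over all genes tested. The groups did not overlap for 17 members, all with treated mice lower, where 17.2% of all genes were so. At an unadjusted p under 0.05, 20 members passed, beside 36.1% of all genes. This comparison and HFD against control share the 4 HFD libraries, so their values are set side by side and are not independent of each other. Of the members, 13 were called higher in the first and lower in the second. Col8a1 (higher) and Col19a1 (lower) were called in the first alone, and Col4a6 and Col6a6 (lower) in the second alone; no test was made of the difference between the comparisons.

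Col1a1 had the largest fold difference here too, with a mean of 3.99 ± 3.55 CPM (SD, n = 3) in HFD plus HQHF against 73.6 ± 58.1 CPM in HFD. It fell by 4.20 ± 0.89 on the log2 scale (SE, edgeR adjusted p = 0.016). Col3a1 fell by 3.09 ± 0.59 (log2, SE, edgeR adjusted p = 0.011), from 178 ± 122 CPM to 21.0 ± 4.88 CPM. Col1a2 fell by 2.86 (log2, edgeR adjusted p = 0.0175), Col5a1 by 1.87 (0.0108) and Col5a2 by 2.90 (0.0205). The HFD and HFD plus HQHF values of these 5 chains did not overlap, and the same holds for Col4a1, Col4a2 and Col4a5.

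Of the basement membrane chains, Col4a1 fell by 1.44 (log2, edgeR adjusted p = 0.0228), Col4a2 by 1.69 (0.02) and Col4a5 by 2.59 (0.034). Col4a6, the gene paired with Col4a5 in type IV networks, fell by 3.29 ± 1.00 (log2, SE, edgeR adjusted p = 0.0439), with HFD plus HQHF values of 0.0574, 0.313 and 0.288 CPM that overlapped HFD 3. Col15a1 had a log2 fold change of -1.10 ± 0.52 (SE, edgeR adjusted p = 0.159) and Col18a1 of 0.04 ± 0.45 (SE, edgeR adjusted p = 0.965).

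Col12a1 had the smallest adjusted p of the members in this comparison, and fell by 2.48 ± 0.42 (log2, SE, edgeR adjusted p = 0.00653). The type VI chains Col6a1, Col6a2 and Col6a3 fell by 2.36, 2.55 and 2.61 on the log2 scale (edgeR adjusted p = 0.0195, 0.0251 and 0.0282). Col6a6 was at 3.32, 2, 0.882 and 1.87 CPM in HFD mice and at 0.804, 0.548 and 0.837 CPM in HFD plus HQHF mice, and fell by 1.47 (log2, edgeR adjusted p = 0.0361). HFD 3 lay just above the treated mice for this gene. Col16a1 fell by 1.5 (log2, edgeR adjusted p = 0.024). Col14a1 (log2 fold change -0.79, edgeR adjusted p = 0.135), Col8a1 (-1.93, 0.0591) and Col19a1 (0.60, 0.283) were not called.

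This count rested on few treated mice. Without HFD plus HQHF 1, and likewise without HFD plus HQHF 2, it was 1 (Col12a1 in both) instead of 15, the adjusted p of Col1a1 being 0.0693 and 0.07 and that of Col3a1 0.0557 and 0.051 (edgeR). Calls over all genes dropped too, from 1532 of 13832 lower to 352 of 14254 and 400 of 14252 in the same fits. The 15 members had the same direction in all 10 fits that left out 1 library, and Col1a1 ranged from -5.24 to -3.66 in log2 fold change over them. With library totals in place of TMM, 23 members were called lower and 0 higher, with 47.0% of all genes called lower and 0.99% higher and the median of all genes at -0.62 instead of -0.07.

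**Figure D3:**
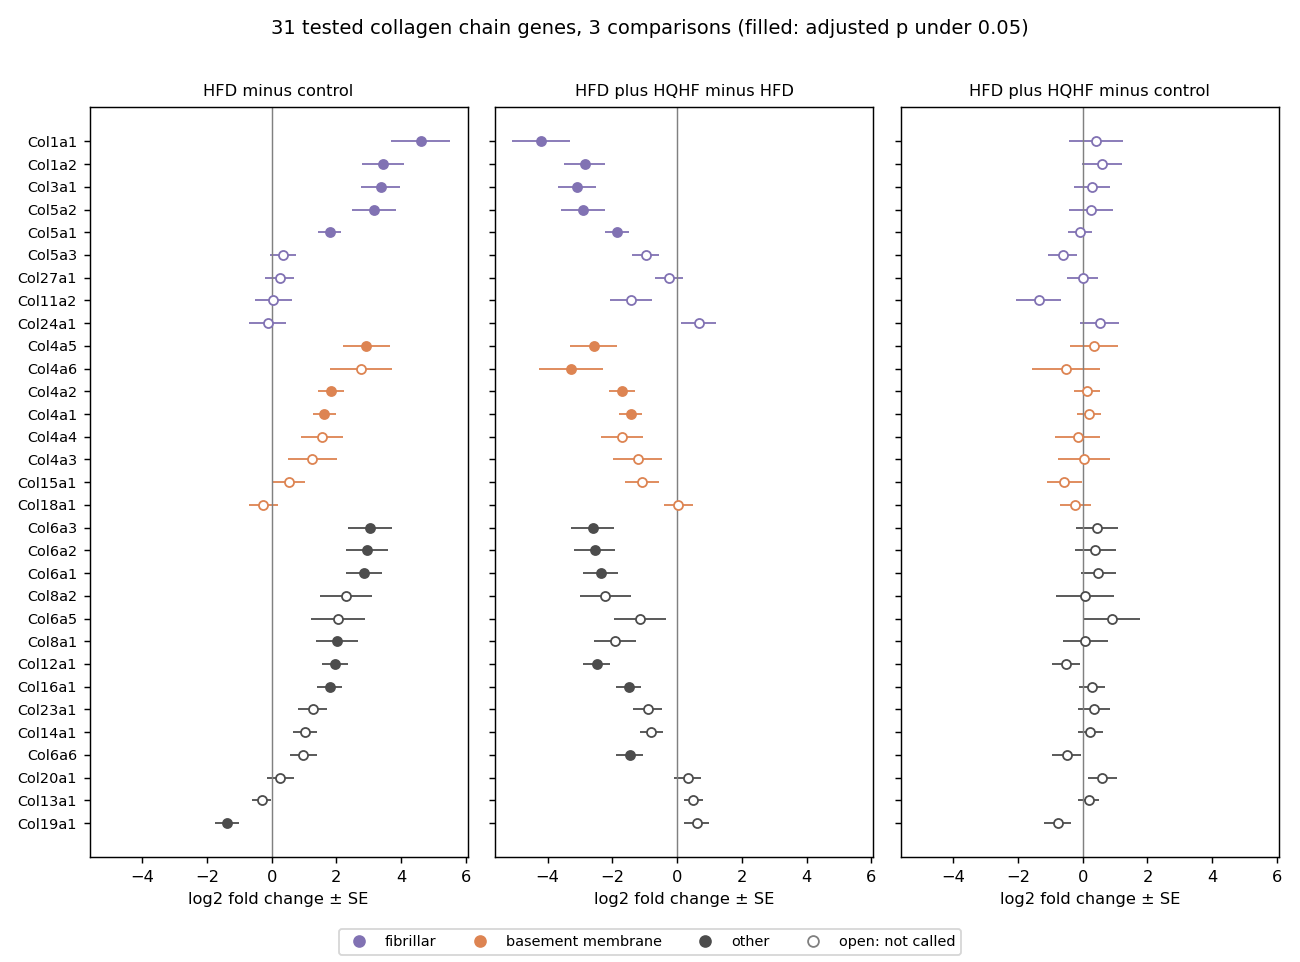
Log2 fold change ± SE (x) of the 31 tested collagen chain genes (y, sorted by class and by the first comparison) in the 3 comparisons, with filled points for genes called at an adjusted p under 0.05. In the first panel 15 points are filled (14 to the right of 0), in the second 15 (to the left of 0), and in the third none.

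HFD plus HQHF against control sets treated mice against mice that never had the diet. No member was called (0 of 31), and no gene of the 13832 was, which is 0.0%. At an unadjusted p under 0.05, 0 members and 7.29% of all genes passed, and DESeq2 called 46 genes higher and 26 lower and no member. Member log2 fold changes lay between -1.37 for Col11a2 and 0.90 for Col6a5, with a median of 0.19. Col1a1 was at 0.41 ± 0.84, Col1a2 at 0.58 ± 0.62, Col3a1 at 0.29 ± 0.56 and Col6a1 at 0.49 ± 0.55 in log2 fold change (SE), and Col4a1 was at 0.19 ± 0.37. These errors leave room for differences of either sign, so the treated and control livers were not shown to be alike. Groups did not overlap for Col4a5 (treated mice higher) and for Col6a6 (treated mice lower), where the same holds for 8.4% of all genes upward and 6.72% downward. For Col1a1, treated mice 1 and 2 were at the low end of the control values, while mouse 4, at 8.08 CPM, lay above all control mice.

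The 11 members that were not tested had few reads. Summed over the 3 control, 4 HFD and 3 HFD plus HQHF libraries, Col28a1 had 6, 52 and 2 reads, Col7a1 of anchoring fibrils 5, 40 and 3, and Col25a1 20, 33 and 14. Col6a4 had 0, 23 and 3 reads, Col9a3 1, 24 and 2, and Col11a1 0, 24 and 0, of which 22 were in HFD 3. Col9a1, Col9a2, Col17a1 and Col22a1 had between 4 and 22 reads in the 10 libraries, and Col10a1, the hypertrophic cartilage collagen, had 0. At these counts no difference could be shown.

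Chains of a type were also compared within each library as a ratio of reads, which no scaling factor can change. Such a ratio depends on the length of both transcripts, so its change between groups can be read but not its level. Col1a1 reads per Col1a2 read were 0.379, 0.252 and 0.36 in control mice, 0.755, 0.65, 0.557 and 0.818 in HFD mice, and 0.18, 0.244 and 0.369 in HFD plus HQHF mice. The HFD mice lay above all others. The geometric means were 0.325, 0.688 and 0.253, a log2 difference of 1.08 between HFD and control and of -1.44 between HFD plus HQHF and HFD. Both have an exact two-sided permutation p of 0.0571, which is the smallest that 3 against 4 mice allow, and 0.257 after adjustment over the 18 tests of 6 ratios. Col3a1 reads per Col1a1 read went the other way, with geometric means of 6.00, 2.58 and 6.63 and no overlap between HFD and either group (exact permutation p = 0.0571, adjusted 0.257). In every HFD mouse Col1a1 thus held a larger share of these reads than in any other mouse. With 0.0571 as the smallest p, no ratio could fall under 0.05, so the test cannot decide on this separation.

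The ratios within type IV and type VI overlapped between groups. Col4a1 reads per Col4a2 read had geometric means of 1.92 in control, 1.67 in HFD and 1.89 in HFD plus HQHF mice (exact permutation p = 0.171 for HFD against control). Col6a1 reads per Col6a2 read were at 1.94, 2.04 and 2.04, and Col6a3 per Col6a1 at 1.29, 1.29 and 1.23. Col5a1 per Col5a2 was at 3.26, 1.66 and 2.71, with overlapping groups (exact permutation p = 0.114 for HFD against control). The ratios were chosen with values of these genes in view.

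Other genes of the collagen pathway were taken from 5 lists, whose counts stand beside 16.3% of all genes called higher and 9.89% lower in HFD, and 11.1% lower and 7.85% higher in treated against HFD mice. The lists were not counted again without single treated libraries, on which the members' count in that comparison rested. In the cell, chains are hydroxylated and folded in the endoplasmic reticulum; outside it, procollagen is trimmed and cross-linked. Of the hydroxylation, glycosylation and folding genes, 6 of 19 tested were called higher and 0 lower in HFD against control, and 4 were called lower and 0 higher in HFD plus HQHF against HFD. Serpinh1, the collagen chaperone HSP47, was at 4.94, 5.18 and 7.43 CPM, then 26.9, 15.2, 18.7 and 28.0 CPM, then 7.09, 8.50 and 6.51 CPM. It separated HFD from both other groups, rising by 1.93 ± 0.25 (log2, SE, edgeR adjusted p = 0.00183) in HFD over control and falling by 1.59 in treated mice (edgeR adjusted p = 0.0046). Fkbp10, a prolyl isomerase for procollagen, rose by 2.90 ± 0.52 (log2, SE, edgeR adjusted p = 0.00548). The list's median log2 fold change in HFD over control was 0.11, beside 0.06 for all genes tested.

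Of the trimming and cross-linking genes, 9 of 12 tested were called higher and 1 lower in HFD. The lower gene was Bmp1, the C-proteinase of procollagen, at a log2 fold change of -0.72 (edgeR adjusted p = 0.0409). The lysyl oxidases Loxl1 and Loxl2, which cross-link collagen, rose by 3.19 ± 0.51 (edgeR adjusted p = 0.00363) and 1.88 ± 0.31 (0.00432) on the log2 scale (SE). Loxl1 was at 0.604, 0.641 and 0.539 CPM, then 4.38, 3.69, 2.71 and 11 CPM, then 0.546, 0.887 and 1.12 CPM. In treated mice against HFD 7 of the 12 were called lower and 2, Bmp1 and Pcolce2, higher. The median of the list was 1.91 in HFD over control and -1.55 in HFD plus HQHF over HFD, on the log2 scale.

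Fibril-associated and other matrix proteins that are not collagens gave 15 of 19 called higher and 0 lower in HFD. In treated mice against HFD, 13 were called lower and 0 higher. This list also holds the basement membrane genes Nid1, Nid2 and Hspg2 and the elastic fibre genes Eln and Fbn1. Thbs1, a matrix glycoprotein that activates latent TGF-beta, rose by 2.91 ± 0.46 (log2, SE, edgeR adjusted p = 0.00383). Sparc, a collagen-binding matrix protein, rose by 1.65 ± 0.27 (log2, SE, edgeR adjusted p = 0.00409). Among collagen receptors and uptake genes, 5 of 10 were called higher in HFD and 3 lower in treated mice, including the collagen-binding tyrosine kinases Ddr1 (3.48 ± 0.61 in HFD over control, log2, SE, edgeR adjusted p = 0.0056) and Ddr2 (1.19 ± 0.22, 0.00609). TGF-beta and PDGF signals drive collagen synthesis by stellate cells. Of their genes 14 of 20 were called higher in HFD and 12 lower in treated mice, with Pdgfb at 2.11 ± 0.32 (log2, SE, edgeR adjusted p = 0.00328) and Pdgfa at 1.44 ± 0.20 (0.00261) in HFD over control. Those not called in HFD were Tgfb1 (edgeR adjusted p = 0.0535), Ccn2, Smad2, Smad3, Smad4 and Pdgfc. No gene of the 5 lists was called in treated against control mice, where 0 of all 13832 genes tested were called.

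Marker genes of the cell types that a liver piece can hold were set beside the collagen chains. Counts of called markers, here and in the next paragraph, stand beside 16.3% of all genes called higher and 9.89% lower in HFD. In treated against HFD mice the shares of all genes were 11.1% lower and 7.85% higher. In bulk RNA, fewer cells of a type and less RNA per cell cannot be told apart. The summed level of 8 hepatocyte markers was 113110 to 144926 CPM in control, 41696 to 78452 CPM in HFD and 89936 to 119928 CPM in HFD plus HQHF mice. Of the 8, 4 were called lower in HFD and 3 higher in treated against HFD mice. Portal fibroblast markers summed to 5.46 to 14.9 CPM in control, 29.1 to 105 CPM in HFD and 12.1 to 13.9 CPM in treated mice. Of 8 tested, 8 were called higher in HFD and 6 lower in treated against HFD mice. The sums of the myofibroblast and smooth muscle list were 29 to 58.7, 86.7 to 185 and 22.7 to 39.0 CPM in the same order (4 of 8 called higher in HFD, 7 of 8 lower in treated mice). Of its defining genes, Acta2 was at 0.718 to 11 CPM in control, 8.25 to 40.3 CPM in HFD and 1.20 to 3.04 CPM in treated mice. It was not called in HFD against control (edgeR adjusted p = 0.149) and was called lower in treated against HFD mice (0.0472). Timp1 was at 0 in controls 3 and 4 and at 0.827 to 3.20 CPM in HFD, where it was called higher. Stellate cell markers overlapped, at 337 to 475, 370 to 777 and 393 to 495 CPM. Still, 6 of 12 were called higher in HFD and 5 lower in treated against HFD mice. These lists share Lox, Postn, Eln, Fbln2 and Pdgfrb with the pathway lists above.

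Some other tissue types were uneven among single mice. Mesothelial markers were at 1.14 to 1.44 CPM in control, 3.69 to 38.1 CPM in HFD and 0.626 to 1.99 CPM in treated mice, and cholangiocyte markers reached 372 CPM in HFD 4 and 96.0 CPM in HFD 1 against 18.9 to 43.4 CPM in the other 8 mice. Both lists hold Krt19, which was at 35.1, 1.80, 0.431 and 9.59 CPM in HFD 1 to 4. The mesothelial sums of HFD 1 and HFD 4, at 38.1 and 13.5 CPM, were thus mostly Krt19. The cholangiocyte sum of HFD 4 was mostly Spp1, at 302 CPM. Of 6 cholangiocyte genes tested, only Krt19 was called higher in HFD, and only Krt7 lower in treated against HFD mice. Adipocyte markers summed to 164 CPM in HFD 3, the HFD mouse that was lowest for 12 of the 14 members called higher, and to at most 14.3 CPM elsewhere. Pancreatic acinar markers summed to 1944 CPM in control 1, against 4.23 to 18.2 CPM in the other mice. Without control 1 the count of members called higher in HFD was 7. It was 9 without control 3, where the acinar markers summed to 6.25 CPM. Of all genes, 951 were called higher without control 1 and 862 without control 3, against 2257 with both. Endothelial markers overlapped between the groups (359 to 414, 313 to 434 and 355 to 506 CPM), as did the summed macrophage markers (225 to 274, 200 to 366 and 241 to 358 CPM). Of the 7 macrophage genes, however, Trem2, Itgax, Cx3cr1 and Cd68 were called higher in HFD and lower in treated mice, and Clec4f, a Kupffer cell gene, was called lower and then higher. The part of these cell types in the collagen differences was not tested.

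The genes most like Col1a1 were looked up by Pearson correlation of log2 CPM over the 10 libraries, which share the group difference and so give high values to many genes. Among genes that are no collagen chain the 5 highest were Mab21l4 (0.986), Mrc2 (0.983), Gipc2 (0.981), Pdgfrb (0.979) and Sh2d4a (0.977). Of these, Mab21l4 and Gipc2 were low throughout, with means of 0.0663 and 0.0472 CPM in control and 0.312 and 0.908 CPM in HFD mice. Mrc2 is an endocytic receptor that takes up collagen, and Pdgfrb is the PDGF receptor of stellate cells. Among the members, Col1a2 (0.99) and Col3a1 (0.981) were closest, Col4a1 was at 0.938, Col18a1 at 0.214 and Col19a1 at -0.687.

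The small RNA libraries of the same mice allow a look at miR-29, a microRNA family known for binding collagen mRNAs and lowering their levels. A microRNA recognises its targets mainly through its seed, bases 2 to 8 from the 5′ end. The 3 main arms share a seed, in capitals in the sequences from RefSeq (GRCm38.p6):
miR-29a-3p: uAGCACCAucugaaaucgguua
miR-29b-3p: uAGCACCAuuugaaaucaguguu
miR-29c-3p: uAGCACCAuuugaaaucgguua
Of 7 miR-29 arms tested among 406 miRNAs, 0 were called higher and 2 lower in HFD against control, where 7.64% of miRNAs were called higher and 8.62% lower. In HFD plus HQHF against HFD, 3 arms, those printed above, were called higher and 0 lower (10.6% and 9.36% of miRNAs), and in treated against control mice 0 were called (0.739% and 0.493%).

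miR-29c-3p was at 13057, 15939 and 12338 CPM of small RNA in control mice, 8660, 10354, 10553 and 7631 CPM in HFD mice, and 18698, 20243 and 18562 CPM in HFD plus HQHF mice. The 3 groups did not overlap, with HFD lowest and the treated mice highest. It fell in HFD by 0.57 ± 0.14 (log2, SE, edgeR adjusted p = 0.0314) and rose in treated mice against HFD by 1.04 ± 0.14 (log2, SE, edgeR adjusted p = 0.0043). miR-29a-3p was at 28726, 34021 and 28131 CPM, then 19810, 21688, 26167 and 26150 CPM, then 33350, 32095 and 35303 CPM. Its log2 fold changes were -0.37 (edgeR adjusted p = 0.0734) in HFD over control and 0.52 (0.0222) in treated over HFD mice. miR-29b-3p overlapped between control and HFD (log2 fold change -0.13, edgeR adjusted p = 0.52) and rose by 0.54 in treated over HFD mice (0.043). The second arm called lower in HFD was miR-29a-5p, a low arm at 17.1, 23.3 and 28.8 CPM in control and 11.3 to 15.2 CPM in HFD mice (log2 fold change -0.75, edgeR adjusted p = 0.0421).

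These directions depended on the scaling. In fits that left out 1 library, 0 or 1 arm was called lower in HFD and 1 to 3 arms higher in treated mice. TMM factors of the small RNA libraries ran from 0.707 to 1.61, and with library totals alone miR-29a-3p was at 0.33 and miR-29c-3p at 0.10 in HFD over control, and miR-29a-3p at -0.10 in treated over HFD mice (log2). Of the rises in treated mice, that of miR-29c-3p alone was called under library totals as well, at 0.47 on the log2 scale. A relation between miR-29 and collagen levels across mice was not tested.

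**Figure D4:**
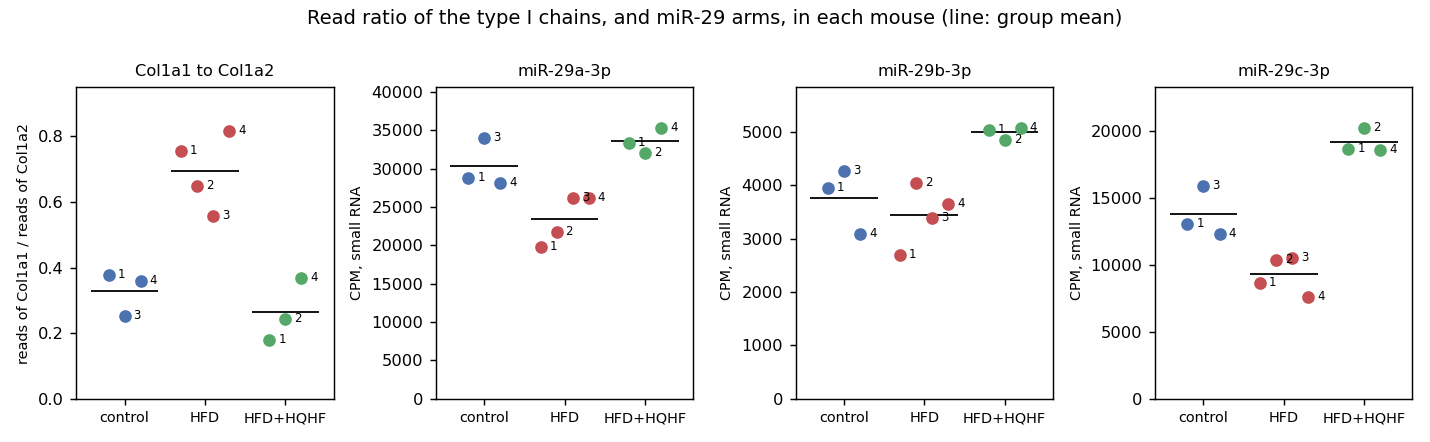
Left, reads of Col1a1 divided by reads of Col1a2 (y) in each mouse; right, levels of the 3 miR-29 arms (y, CPM of small RNA, axes from 0) in the same mice. Points are mice with their numbers and lines are group means: the Col1a1 to Col1a2 ratio is highest in HFD, and miR-29c-3p is lowest in HFD, at 7631 to 10553 CPM, and highest in HFD plus HQHF mice.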

How the data were processed

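Long and small RNA of 12 mouse livers was sequenced; total RNA was extracted with TRIzol and depleted of ribosomal RNA for a stranded library, per the labels' protocols. The authors deposited raw counts per gene and per mature miRNA; HISAT2, RSEM and the build GRCm39 are named in the submitters' processing notes without versions or roles, and the counter and annotation are not stated in the labels or notes. Loci without an Ensembl ID (87, with 0.144% of counts) were kept. Groups came from the labels, which name 1 mouse per sample and give each its own batch code, so no batch term could be fitted. Control 2 and HFD plus HQHF 3 were left out.

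The counts of the 10 libraries were tested with edgeR 4.0.16 in R 4.3.3 (filterByExpr, TMM, robust quasi-likelihood fit with 3 group means, Benjamini-Hochberg over 13832 genes or 406 miRNAs, threshold 0.05), after tests on simulated data. SE is the log2 fold change over the square root of F. Ratios were tested by exact permutation (scipy 1.17.1). Library totals ran from 33380925 to 46454404 counts for long RNA. Alternatives were DESeq2 1.42.0, other scalings and filters, all 12 libraries, only the 2 groups compared, a replicate block, and leaving out each library. Values by mouse were given for every member called and for 13 preset chains, except Col4a6 and Col6a6 (some mice only) and Col15a1 (fold changes only). Of each pathway list the 2 genes with the smallest p in HFD against control were named, and the 5 genes most like Col1a1. Bmp1, Pcolce2, Acta2, Timp1, Krt19, Krt7, Spp1, the macrophage genes named and the chain ratios were chosen after values were seen. So were the genes of the TGF-beta and PDGF list named as not called, and the added names from the fibril-associated list. Members and lists were chosen with earlier results of these data known.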

Additional observations from a re-analysis of the deposited data

Results flagged for a closer look

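Col6a1 in HFD 4 was at 126 CPM, set apart from the other HFD mice at 30.8 to 47.1 CPM, and Ddr1 in HFD 4 was at 23.6 CPM against 5.66 to 8.04 CPM. For each, the gap to the next mouse passed the 95% limit of Dixon's test for 4 samples, which chance passes in about 1 in 20 groups. These are 2 of 37 results examined, and Col6a1 passed narrowly. The 37 were measured in the same mice and are not independent, so whether this count exceeds chance cannot be told. HFD 4 was also the highest HFD mouse for all 14 members called higher.

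The 2 libraries left out of the comparisons, which are labelled liver but go against that label by their markers, had high levels of many collagen chains in CPM of the library total. Control 2 held 59.9 CPM of Col1a1 and HFD plus HQHF 3 held 229, against 1.67 to 3.39 CPM in the control mice compared. Col3a1 was at 875 and 816 CPM in them, against 12.3 to 15.8 CPM. Col6a5 was at 117 CPM in control 2 but at 0.531 CPM in HFD plus HQHF 3, against 0.114 to 0.858 CPM. Some chains went the other way: Col18a1 was at 93.0 and 36.3 CPM, against 384 to 1124 CPM. Col13a1 was at 0.0599 and 1.88 CPM, against 2.57 to 5.25 CPM. In both libraries Alb was at or below 46.4 CPM and Adipoq at or above 1254 CPM; the part of this in the collagen levels was not tested.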

How the results depend on the processing

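With all 12 libraries, 0 collagen chain genes, 0 of each class and 0 miR-29 arms were called in either comparison with HFD. Log2 fold changes of HFD over control then turned to -0.66 for Col15a1, 0.10 for Col18a1, -0.44 for Col4a1, -0.13 for Col4a2, -1.01 for Col4a6, -0.47 for Col5a2, -1.39 for Col6a6, -0.10 for Col8a1, 0.035 for miR-29b-2-5p, 0.22 for miR-29b-3p, -1.01 for Serpinh1, -0.26 for Loxl1, -0.090 for Loxl2, -2.34 for Thbs1, -0.035 for Sparc and -1.41 for Ddr2. In treated over HFD mice they turned to 0.78 for Col12a1, -0.31 for Col18a1, 0.12 for Col4a1 and 0.073 for Col4a2, and in treated over control mice to 2.08 for Col12a1, -0.060 for Col14a1, -1.04 for Col16a1, -0.32 for Col4a1, -0.053 for Col4a2, -1.83 for Col4a5, -1.06 for Col5a2, -0.39 for Col6a2 and -0.58 for Col8a1. The cause was not tested.

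With library totals, 0 members were called lower in HFD, 5 basement membrane and 11 other chains higher, and in treated against HFD mice 23 members and 10 other chains lower; 0 miR-29 arms were lower in HFD, and 1 was higher and 1 lower in treated mice. Col18a1 turned to 0.35 and -0.51 in these comparisons. In HFD over control, miR-29a-3p was at 0.33, miR-29b-1-5p at 0.55, miR-29b-2-5p at 0.56, miR-29b-3p at 0.54, miR-29c-3p at 0.10 and miR-29c-5p at 0.18; in treated over HFD mice, miR-29a-3p was at -0.10, miR-29b-1-5p at -0.11, miR-29b-2-5p at -0.22, miR-29b-3p at -0.055 and miR-29c-5p at -0.078.

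DESeq2 called 5 basement membrane chains higher in HFD and 1 miR-29 arm lower in treated against control mice. With only the 2 groups compared, 2 basement membrane chains were lower in treated against HFD mice, and miR-29 gave 0 lower in HFD, 1 higher in treated against HFD mice, and 1 higher and 1 lower in treated against control mice. Without a filter, miR-29 gave 1 lower and 1 higher, and miR-29c-5p was at -0.0084 in treated over control mice.

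Replicate numbers did not pair the mice: the deviations of 8 same-numbered pairs correlated at -0.05 to 0.12, 1 over 0.1, and 4 of 10 libraries correlated best with their own number. With the replicate block, 15 members were called higher and 1 lower in HFD, 14 lower in treated against HFD mice, and 1 miR-29 arm lower in HFD. Of 13832 genes, 1888 were then called higher and 952 lower in HFD, and 1077 lower in treated against HFD mice. Col18a1 was at -0.19 in treated over HFD mice, and in treated over control mice Col3a1 was at -0.0023, Col5a2 at -0.088 and Col8a1 at -0.050.

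Leaving out 1 library gave 7 to 17 members higher (fibrillar 4 to 5, basement membrane 0 to 4, other 3 to 8) and 0 to 1 lower in HFD. In treated against HFD mice 1 to 17 members were lower (fibrillar 0 to 5, basement membrane 0 to 4, other 1 to 8). Of all genes, these fits called 862 to 2349 higher and 617 to 1533 lower in HFD, and 352 to 1941 lower in treated against HFD mice. For miR-29, 0 to 1 were lower in HFD, 1 to 3 higher in treated against HFD mice, and 0 to 1 lower in treated against control mice. Log2 fold changes that changed sign were Col18a1 (-0.60 to 0.23, -0.49 to 0.32 and -0.75 to 0.27 in the 3 comparisons), miR-29b-1-5p (-0.40 to 0.044) and miR-29b-2-5p (-0.21 to 0.14) in HFD over control, and in treated over control mice Col1a1 (-0.64 to 0.79), Col4a1 (-0.090 to 0.48), Col4a2 (-0.12 to 0.44), Col4a6 (-0.86 to 0.14), Col5a1 (-0.31 to 0.28), Col6a3 (-0.018 to 0.63), Col8a1 (-0.18 to 0.26) and miR-29c-5p (-0.0089 to 0.089). A per-length sum of collagen by class was not run, since no transcript lengths were used here. Low counts limit the 11 members that were not tested.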
